A study of Anas platyrhynchos with 20 samples.

Results

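Livers of ducks fed linseed oil were compared with livers of ducks fed the control diet, which is 10 of the 20 libraries of a study that also sequenced breast muscle. The ducks of both groups were male Runzhou white crest ducks on the same basal diet, fed from 28 days of age and for 28 days with 2% linseed oil (the high linseed oil liver group, HL, n = 5) or with 2% duck oil (the control liver group, CL, n = 5). The study chose these ducks for sequencing by the n-3 polyunsaturated fatty acid ratios in their tissues, the highest for HL and the lowest for CL, so the contrast joins the diet and that choice. Gene expression was given for 25117 genes as FPKM, fragment counts divided by transcript length and scaled between libraries by median-of-ratios size factors. A gene was tested where 5 or more of the 10 liver libraries reached an FPKM of 1, which held for 9543 genes. A gene could thus enter through the livers of 1 diet group alone.

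The liver is built of plates of hepatocytes lined by sinusoids. The wall of a sinusoid is made of endothelial cells that take up waste molecules through scavenger receptors, Kupffer cells are the macrophages that sit inside it, and stellate cells lie behind it. Hepatocytes make the plasma proteins, bile acids and lipoproteins, and in birds the liver is the main site of fatty acid synthesis. Linseed oil is rich in α-linolenic acid, an n-3 fatty acid, and polyunsaturated fatty acids are known, mostly from work in mammals, to act on the transcription factors PPARα and SREBP1.

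The 10 liver libraries held 15417718 to 16705165 fragments recovered from the FPKM values, and ALB, which encodes albumin, had at least 51357 FPKM in every HL liver and at least 80405 FPKM in every CL liver. Of 10 cell type lists, the hepatocyte markers gave by far the largest summed FPKM. Libraries CL 1 and HL 3 correlated better with the other diet group than with their own. The median correlation of CL 1 was 0.914 with the other CL livers and 0.930 with the HL livers, and that of HL 3 was 0.957 with the other HL livers and 0.962 with the CL livers. Among the HL livers, HL 1 had the lowest median correlation with its own group, 0.947, against 0.944 with the CL livers. HL 3 was thus not the HL liver least like its group. Many counts and calls that rest on CL 1 or HL 3 are also given without them. The 2 libraries were singled out for their likeness to the other diet group, so leaving them out can by itself raise the number of calls. Calls made without them are therefore descriptions and no independent support. A change of scaling also matters here, since the summed FPKM per library was 510246 to 698784 in HL and 639541 to 817538 in CL. Scaled to the same sum, the median log2 fold change over all genes moved by 0.221, and 92.1% of the genes with an unadjusted p below 0.05 were higher in HL, against 56.1% in the deposited scaling. List medians with the same sum are therefore read against 0.196, the median over all genes in that scaling, and those after quantile normalization against 0.004.

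Of the 9543 genes, 12 (0.126%) were differentially expressed genes (DEGs), for which limma on log2(FPKM + 1) had to give an adjusted p below 0.05 together with a log2 fold change outside -1 to 1. There were 11 that rose in HL (0.115%) and 1 that fell (0.0105%). The count depended on single libraries: leaving out CL 1 gave 36 that rose and 63 that fell, and leaving out HL 3 gave 59 that rose and 1 that fell (0.0106%). Other libraries lowered it when left out, to 3 of 9412 genes without HL 4, 3 of 9446 without CL 2 and 3 of 9461 without CL 5. Without HL 1 it was 10 of 9419, and 5 of these were among the 12. At an unadjusted p below 0.05 there were 661 genes higher in HL (6.93%) and 517 lower (5.42%), the shares against which the gene lists are read. List counts without CL 1 are read against 10.9% higher and 13.5% lower, and those without HL 3 against 6.31% and 5.65%. The members of the lists were chosen with earlier results of these data known, so their counts are descriptions and no independent support. The HL and CL values did not overlap in any of the 12 DEGs. The calls were made on these same values, so this describes the DEGs and is no further support. Over all genes, 1.92% were higher without overlap and 0.88% lower. Of the 12, 4 belonged to the list of endothelial markers, all higher in HL.

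**Figure D1:**
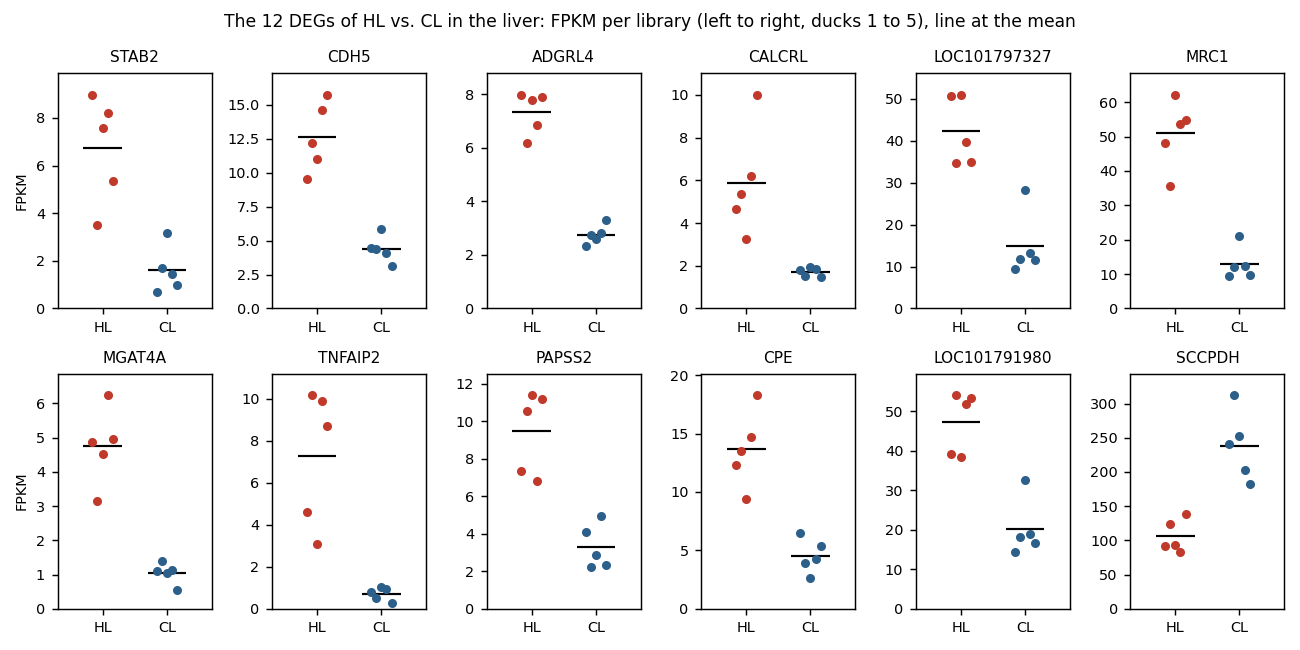
FPKM (linear axes from 0) of the 12 DEGs in each liver library, HL left and CL right, with a line at each group mean. In every panel the HL and CL points do not overlap, and SCCPDH is the one gene lower in HL.

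STAB2 encodes a scavenger receptor of the sinusoidal endothelium that clears hyaluronan. It measured 8.98, 3.52, 7.57, 8.22 and 5.36 FPKM in HL livers 1 to 5, against 0.696, 1.68, 3.18, 1.46 and 0.971 FPKM in CL livers 1 to 5. HL 2 was the lowest HL liver, just above CL 3, the highest of CL (log2 fold change 1.59 ± 0.27 SE, adjusted p = 0.0479). CDH5, the cadherin of endothelial junctions, measured 9.52, 12.2, 11.03, 14.6 and 15.8 FPKM in HL, against 4.49, 4.37, 5.87, 4.102 and 3.13 FPKM in CL. HL 1, the lowest of HL, was above CL 3, the highest of CL (log2 fold change 1.34 ± 0.17, adjusted p = 0.0133). ADGRL4, an adhesion receptor of endothelial cells, measured 7.98, 6.19, 7.77, 6.86 and 7.89 FPKM in HL, against 2.34, 2.73, 2.61, 2.83 and 3.29 FPKM in CL. Both groups were tight around their means, and this was one of 3 genes called whichever single library was left out, with MRC1 and MGAT4A (log2 fold change 1.15 ± 0.12, adjusted p = 0.00652). CALCRL, the receptor through which vessels respond to adrenomedullin, measured 4.63, 5.35, 3.25, 6.202 and 10.01 FPKM in HL, against 1.78, 1.51, 1.95, 1.84 and 1.46 FPKM in CL. HL 5 stood high among the HL livers, and the CL livers stayed close together (log2 fold change 1.28 ± 0.22, adjusted p = 0.0459). Of the 10 fits that each left out a library, CDH5 was called in 7, STAB2 in 4 and CALCRL in 3.

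A further DEG carried no symbol in the files and was annotated as a kdr-like receptor of vascular endothelial growth factor (LOC101797327), so it was not on the marker list and was picked out after its values were seen. It measured 50.7, 34.7, 51.04, 39.8 and 35.03 FPKM in HL, against 9.39, 11.8, 28.2, 13.2 and 11.7 FPKM in CL. CL 3 was the highest of CL and lay closest to the HL livers (log2 fold change 1.53 ± 0.26, adjusted p = 0.0459). LOC101797327 was called in 3 of the 10 fits that each left out a library. The symbol KDR belonged to a separate gene on the list, with 3.64 ± 0.587 FPKM in HL and 1.66 ± 0.888 FPKM in CL as mean ± SD of 5 livers each (log2 fold change 0.85 ± 0.21, adjusted p = 0.128).

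Over the whole endothelial list, 24 of 28 genes found passed the filter, and all 24 had a positive log2 fold change, with a median of 0.98 against -0.03 over all genes. By the unadjusted test 20 were higher and none lower, and 11 were higher without overlap. These counts include the DEGs on the list, whose members were chosen with earlier results of these data known. The median was 0.81 without CL 1 and 0.93 without HL 3. The members higher by the unadjusted test also numbered 20 without CL 1, where 10.9% of all genes were higher and 13.5% lower, and 20 without HL 3, where 6.31% were higher and 5.65% lower. Summed over the markers, the HL livers had 222 to 259 FPKM and the CL livers 69.7 to 171 FPKM, so the groups did not overlap. CL 1 was the lowest library and HL 3 the highest. Since these are bulk tissue samples, more cells of a type and more RNA per cell cannot be told apart.

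Several other markers of endothelium came near the DEG threshold. LYVE1, a hyaluronan receptor, measured 18.7, 12.9, 21.9, 16.8 and 22.8 FPKM in HL, against 5.42, 9.36, 9.41, 8.27 and 8.89 FPKM in CL. CL 1 was the lowest liver and the others of CL lay close together, all below HL (log2 fold change 1.08 ± 0.19, adjusted p = 0.0521). CLDN5, a tight junction protein of endothelium, measured 8.41, 3.73, 6.37, 5.31 and 4.28 FPKM in HL, against 0.467, 1.799, 1.997, 2.35 and 0.835 FPKM in CL. HL 1 was the highest and CL 1 the lowest, without overlap (log2 fold change 1.43 ± 0.26, adjusted p = 0.0532). STAB1, a scavenger receptor related to STAB2, measured 13.03, 7.35, 13.6, 11.7 and 9.08 FPKM in HL, against 1.44, 3.67, 6.87, 4.78 and 3.39 FPKM in CL. The lowest HL liver was only just above the highest CL liver (log2 fold change 1.32 ± 0.28, adjusted p = 0.096). GATA4, a transcription factor that in the mouse keeps sinusoidal endothelium in its specialised state, had an adjusted p below 0.05 with a fold change short of the threshold, 6.21 ± 0.833 FPKM in HL and 2.87 ± 0.631 FPKM in CL (log2 fold change 0.91 ± 0.15, adjusted p = 0.0424). TEK, the angiopoietin receptor, and EGFL7, secreted by endothelium, were also higher without overlap, with log2 fold changes of 1.14 for TEK and 1.08 for EGFL7. Neither passed the adjusted threshold.

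**Figure D2:**
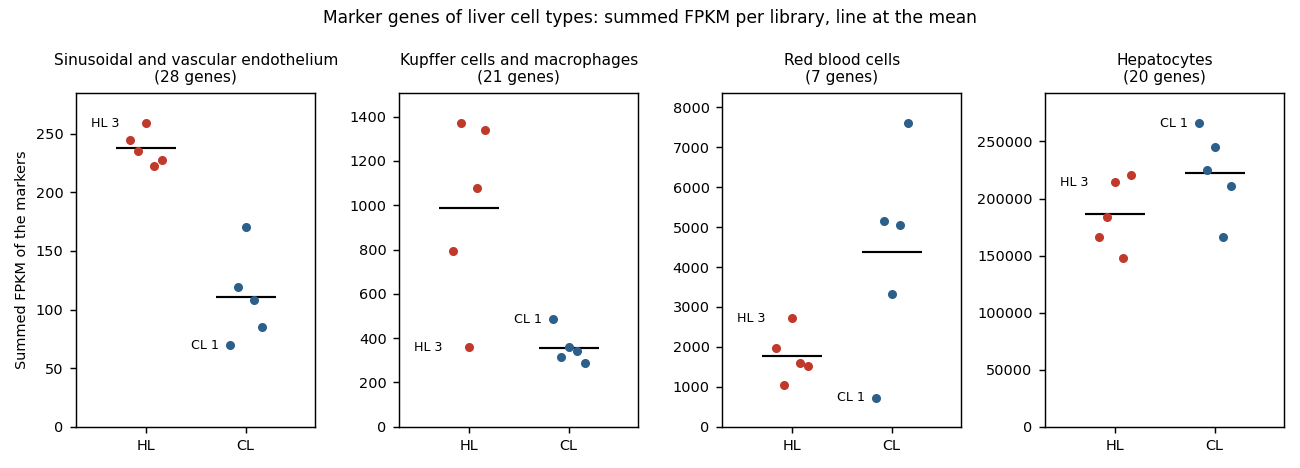
Summed FPKM of the marker genes found for endothelium, macrophages, red blood cells and hepatocytes in each liver library, HL left and CL right, with a line at the mean and the libraries HL 3 and CL 1 named. Endothelial sums did not overlap (222 to 259 FPKM in HL, 69.7 to 171 FPKM in CL), and the other 3 lists overlapped.

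Macrophage genes were higher in 4 of the HL livers, and HL 3 was close to the CL livers. The list had 28 symbols, of which 21 were found and 19 tested. All 19 had a positive log2 fold change, the median was 1.60, 16 were higher by the unadjusted test and none lower. MRC1 was the 1 DEG and the 1 member without overlap. The markers summed to 794, 1370.5, 359, 1079 and 1339.9 FPKM in HL livers 1 to 5, against 485, 314, 358, 342 and 290.0 FPKM in CL livers 1 to 5. HL 3 lay within the CL range, and CL 1 was the highest of CL. Gene by gene, HL 3 was the lowest HL liver in 17 of the 19, with MRC1 and IRF8 as the exceptions, and CL 1 was the highest CL liver in 13. The number of list members that rose as DEGs was 12 without HL 3, where 0.625% of all genes did, and 7 without CL 1, where 0.381% did.

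MARCO, a scavenger receptor of Kupffer cells, gave the largest difference of the list and was, like TIMD4 and CD5L below, chosen after its values were seen. It measured 32.8, 150.1, 4.57, 114 and 113 FPKM in HL, against 33.9, 1.39, 1.16, 2.68 and 1.48 FPKM in CL. HL 3 was far below the other HL livers, and CL 1 far above the other CL livers and just above HL 1 (log2 fold change 3.56 ± 0.97, adjusted p = 0.166). Without CL 1 it passed the threshold (log2 fold change 4.30 without CL 1, adjusted p = 0.0361). TIMD4, which binds phosphatidylserine on dying cells, measured 44.8, 77.03, 3.19, 76.04 and 121 FPKM in HL, against 26.5, 1.38, 0.923, 3.81 and 0.317 FPKM in CL. HL 3 again lay within the CL range, and CL 1 stood far above its group (log2 fold change 3.49 ± 0.97, adjusted p = 0.172). CSF1R, the receptor for the growth factor of macrophages, measured 9.33, 16.7, 1.996, 15.7 and 21.5 FPKM in HL, against 7.68, 2.18, 1.76, 3.25 and 1.504 FPKM in CL. The groups overlapped through HL 3 alone on the HL side (log2 fold change 1.60 ± 0.52, adjusted p = 0.23). C1QC, a chain of complement C1q that macrophages make, measured 42.9, 66.1, 9.36, 54.2 and 59.5 FPKM in HL, against 22.8, 3.74, 5.17, 11.7 and 6.96 FPKM in CL. HL 3 was the 1 HL liver within the CL range, and CL 1 was the highest of CL (log2 fold change 2.10 ± 0.55, adjusted p = 0.146).

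LAPTM5, a lysosomal membrane protein of blood-derived cells, averaged 38.1 ± 19.5 FPKM in HL and 11.6 ± 5.53 FPKM in CL (log2 fold change 1.54 ± 0.41, adjusted p = 0.154). ITGB2, the β chain of leukocyte integrins, measured 8.35, 11.4, 3.96, 9.12 and 11.2 FPKM in HL, against 2.68, 4.15, 3.01, 4.19 and 3.32 FPKM in CL. CL 1 was its lowest library, and HL 3 was the 1 HL liver within the CL range (log2 fold change 1.07 ± 0.24, adjusted p = 0.101). CD5L, a secreted protein of tissue macrophages, averaged 120.1 ± 72.3 FPKM in HL and 19.5 ± 20.2 FPKM in CL (log2 fold change 2.53 ± 0.75, adjusted p = 0.193).

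MRC1, the mannose receptor, an endocytic lectin that in mammals is made by macrophages and by sinusoidal endothelium, stood on the macrophage list but did not share its pattern over libraries. It measured 48.1, 35.7, 62.2, 53.7 and 54.8 FPKM in HL, against 9.57, 12.02, 21.001, 12.4 and 9.602 FPKM in CL. HL 3 was the highest of all libraries, and CL 1 was the lowest of CL by a narrow margin (log2 fold change 1.93 ± 0.22, adjusted p = 0.00652). The sum of the endothelial markers was also highest in HL 3 and lowest in CL 1. Gene by gene, HL 3 was the highest HL liver in 9 of the 24 endothelial genes, and CL 1 the lowest CL liver in 15. Which cells the MRC1 RNA came from was not tested. MRC1 was called whichever single library was left out, with log2 fold changes of 1.85 without CL 1 and 1.85 without HL 3.

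**Figure D3:**
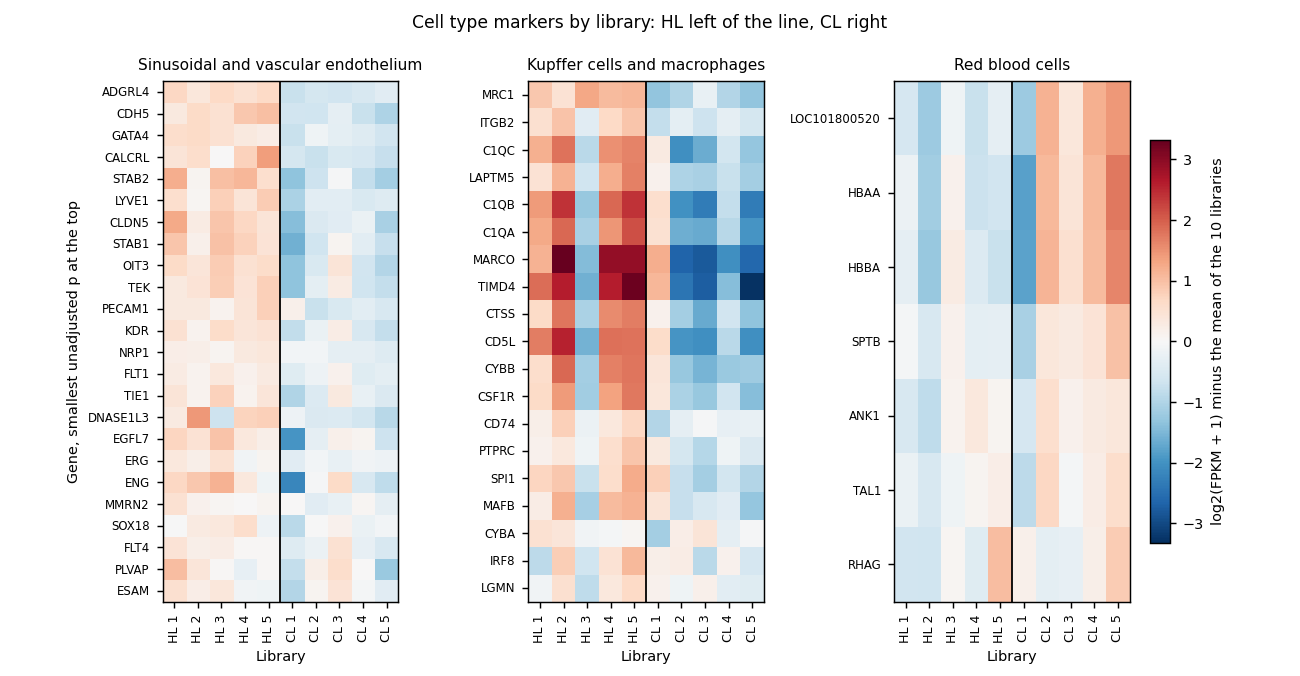
Deviation of log2(FPKM + 1) from the mean of the 10 libraries for the tested markers of endothelium (24), macrophages (19) and red blood cells (7), HL livers left of the line and CL livers right, genes with the smallest unadjusted p at the top. HL 3 is the lowest HL liver in 17 of the 19 macrophage rows and in 4 of the 24 endothelial rows, and CL 1 is the lowest CL liver in 6 of the 7 red cell rows.

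Red blood cells of birds have a nucleus and carry RNA. All 7 of their genes found were tested and had a negative log2 fold change, with a median of -0.41, but with all libraries only 1 was lower by the unadjusted test and none was a DEG. The number lower was 5 without CL 1, where 13.5% of all genes were lower, with a median of -0.74. HBAA, an α globin, measured 879.5, 456, 1113, 621 and 654 FPKM in HL, against 289.7, 2123, 1363, 2141 and 3430.0000 FPKM in CL. CL 1 was the lowest of all libraries, and the other CL livers were above every HL liver (log2 fold change -1.02 ± 0.56, adjusted p = 0.503). HBBA, a β globin, and LOC101800520, annotated as the globin alpha-D, were ordered in the same way. Without CL 1 all 3 globins fell, with log2 fold changes of -1.59 for HBAA, -1.58 for HBBA and -1.63 for LOC101800520. The sum of the 7 markers was 1037 to 2721 FPKM in HL and 721 FPKM in CL 1, with 3331 to 7605 FPKM in the other CL livers.

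The remaining cell types moved less. Stellate cell and fibroblast genes had 14 members tested, none past the unadjusted threshold, and a median of 0.09, and their sum was 189 to 224 FPKM in HL and 151 to 242 FPKM in CL. LRAT, which stores vitamin A as retinyl ester in stellate cells, had 9.76 ± 2.91 FPKM in HL and 6.13 ± 3.32 FPKM in CL (log2 fold change 0.68 ± 0.32, adjusted p = 0.411). Bile duct markers summed to 22.9 to 35.5 FPKM in HL and 28.0 to 50.5 FPKM in CL, with CDH6 at 0 in every liver. Only 6 of 17 T and NK cell genes found, 3 of 15 B and plasma cell genes and 3 of 9 heterophil and thrombocyte genes passed the filter. T and NK cell markers summed to 19.7 to 32.1 FPKM in HL and 21.8 to 29.9 FPKM in CL. The marker sums of these types overlapped between the diets, and those of fat, pancreas and skeletal muscle did as well, at 41.2 to 76.5 FPKM in HL and 40.6 to 60.3 FPKM in CL. The part of the endothelial, macrophage and red cell markers in the results that follow was not tested.

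Among the DEGs outside the endothelial list, TNFAIP2, a protein induced by tumour necrosis factor, had the largest fold change. It measured 4.601, 10.2, 3.07, 9.89 and 8.71 FPKM in HL, against 0.813, 0.513, 1.02, 0.943 and 0.287 FPKM in CL. HL 3 was the lowest of HL and still above every CL liver (log2 fold change 2.18 ± 0.28, adjusted p = 0.0133). CL 3 was the 1 CL liver to reach the FPKM of 1 set by the filter. MGAT4A, which adds a branch to N-linked glycans, measured 4.86, 3.14, 4.53, 6.25 and 4.95 FPKM in HL, against 1.11, 1.39, 1.06, 1.12 and 0.555 FPKM in CL. The groups were far apart relative to their spread (log2 fold change 1.48 ± 0.17, adjusted p = 0.00652). Of the list of N-glycan branching enzymes and endocytic lectins, 17 genes were tested and 3 were higher by the unadjusted test, MGAT4A, MRC1 and MGAT5, another branching enzyme with a log2 fold change of 0.49 and no overlap. B4GALT5 was the 1 lower. The list median was 0.02.

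CPE, an exopeptidase that trims peptide hormone precursors, measured 12.3, 13.5, 9.44, 14.7 and 18.3 FPKM in HL, against 6.46, 3.91, 2.61, 4.28 and 5.34 FPKM in CL. PAPSS2, which makes the sulfate donor used by sulfotransferases, measured 7.36, 10.5, 11.4, 6.83 and 11.2 FPKM in HL, against 4.08, 2.23, 2.89, 4.93 and 2.34 FPKM in CL. In both genes every HL liver was above every CL liver. The log2 fold changes were 1.42 ± 0.22 (adjusted p = 0.0424) for CPE and 1.30 ± 0.21 (adjusted p = 0.0424) for PAPSS2. LOC101791980, annotated as lymphocyte antigen 6E and named after its values were seen, was higher with 47.3 ± 7.87 FPKM in HL and 20.1 ± 7.195 FPKM in CL (log2 fold change 1.23 ± 0.22, adjusted p = 0.0498).

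SCCPDH, a putative oxidoreductase named for its likeness to saccharopine dehydrogenase, was the DEG that fell. It measured 91.1, 124, 92.8, 83.4 and 138 FPKM in HL, against 241, 313, 253, 202 and 182 FPKM in CL. No HL liver reached the lowest CL liver, but the call was the least stable, made in 2 of the 10 fits that each left out a library (log2 fold change -1.16 ± 0.20, adjusted p = 0.0498). Other calls were also unstable. PAPSS2, CALCRL, LOC101797327 and LOC101791980 were called in 3 of these fits, and CPE and STAB2 in 4. TNFAIP2 and CDH5 were called in 7.

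A further 9 genes had an adjusted p below 0.05 with a log2 fold change of at most 1, all higher in HL and without overlap. They were GATA4 and, named after their values were seen, PHACTR2, RGS7BP, ENPP3, ARHGAP31, LACC1, FGD6, ITGA1 and CCDC88C. CCDC88C passed the filter through the HL livers alone, at 1.58 to 2.34 FPKM against 0.642 to 0.942 FPKM in CL. Its lack of overlap was therefore fixed by the filter. For ARHGAP31, CL 3 was the 1 CL liver to reach an FPKM of 1. ITGA1, the α chain of a collagen receptor, had 10.3 ± 1.97 FPKM in HL and 4.74 ± 0.913 FPKM in CL (log2 fold change 0.97 ± 0.16, adjusted p = 0.0459). ARHGAP31 and FGD6, regulators of small GTPases that shape the cytoskeleton, had 2.13 ± 0.332 FPKM in HL and 0.635 ± 0.327 FPKM in CL for ARHGAP31 and 3.29 ± 0.653 FPKM in HL and 1.33 ± 0.2404 FPKM in CL for FGD6. LACC1, a metabolic enzyme of macrophages, had 3.59 ± 0.5197 FPKM in HL and 1.54 ± 0.357 FPKM in CL (log2 fold change 0.86 ± 0.14, adjusted p = 0.0424).

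Large differences that missed the adjusted threshold were also found outside the vessel genes. DAB2, an adaptor for endocytosis of lipoprotein receptors, measured 2.46, 3.54, 3.57, 4.31 and 5.32 FPKM in HL, against 0.535, 1.57, 1.38, 1.59 and 1.32 FPKM in CL. CL 1 was the lowest by a wide gap, and the groups did not overlap (log2 fold change 1.08 ± 0.19, adjusted p = 0.0524). SYTL2, which helps vesicles to dock at the membrane, and MYLIP, a ligase that in mammals marks lipoprotein receptors for breakdown, were higher without overlap, with log2 fold changes of 1.06 for SYTL2 and 1.31 for MYLIP. In MYLIP, HL 1 and HL 3 lay close to the CL livers, at 8.95 and 8.64 FPKM against a highest CL value of 8.33 FPKM. TP53INP1, a stress protein induced by p53, measured 41.7, 14.8, 39.4, 10.8 and 36.8 FPKM in HL, against 82.2, 75.98, 83.5, 58.8 and 71.8 FPKM in CL. HL 2 and HL 4 were the lowest (log2 fold change -1.52 ± 0.35, adjusted p = 0.118). ARRDC4, an arrestin-like protein that limits glucose uptake, was lower in the same 2 HL livers most of all, with 5.605 ± 2.93 FPKM in HL and 13.8 ± 3.62 FPKM in CL (log2 fold change -1.25 ± 0.29, adjusted p = 0.122).

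SLC26A5 encodes prestin, an anion transporter best known from hearing. It measured 37.9, 47.7, 35.5, 32.96 and 49.1 FPKM in HL, against 119.5, 109, 76.5, 98.4 and 53.4 FPKM in CL. The groups were separated by a small gap between HL 5 and CL 5 (log2 fold change -1.11 ± 0.23, adjusted p = 0.0841). MEST, a hydrolase, and CDC25A, a phosphatase that lets cells enter division, were lower without overlap, with log2 fold changes of -0.96 for MEST and -0.91 for CDC25A, and the same holds for HGD, MTHFD2 and ASNS, described with their pathways.

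**Figure D4:**
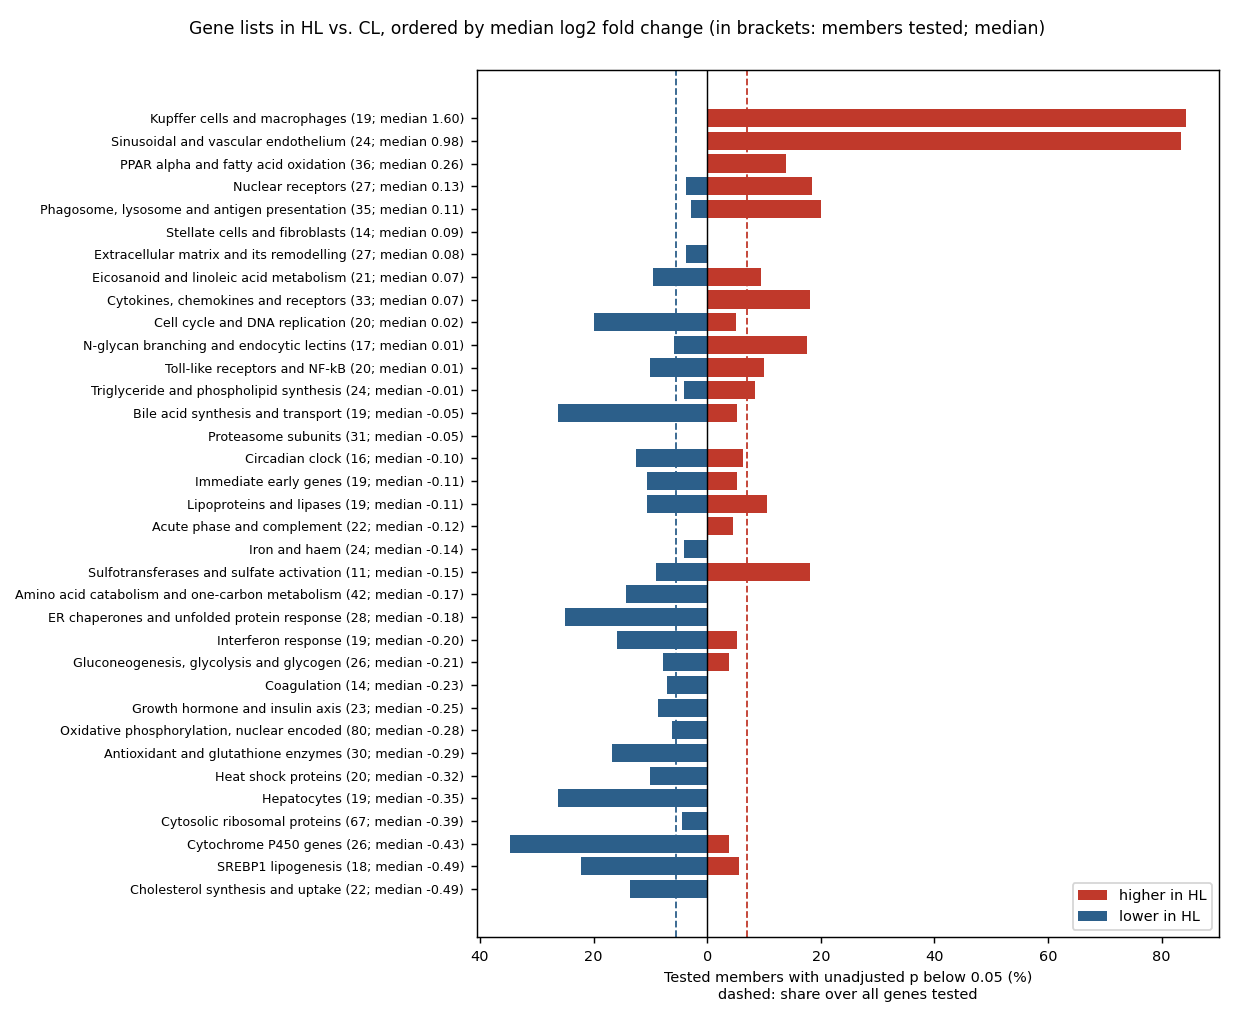
Share of the tested members of each gene list with an unadjusted p below 0.05, higher in HL to the right and lower in HL to the left, for lists with at least 10 tested members, ordered by median log2 fold change. The dashed lines mark the shares over all genes (6.93% higher, 5.42% lower), and endothelium (20 of 24) and macrophages (16 of 19) have the largest shares of higher members.

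No gene of hepatocyte identity was a DEG with all libraries. Of 19 hepatocyte markers tested, 5 were lower by the unadjusted test and none higher, or 6 lower without CL 1, where 13.5% of all genes were lower. The median was -0.35, or -0.09 with the libraries scaled to the same sum and 0.00 after quantile normalization. CEBPA, a transcription factor of mature hepatocytes, measured 43.8, 67.4, 59.01, 38.1 and 45.3 FPKM in HL, against 58.1, 99.3, 134, 130.2 and 106 FPKM in CL. CL 1 fell within the HL range and the other 4 CL livers were above it (log2 fold change -1.01 ± 0.25, adjusted p = 0.128). Without CL 1 it fell (log2 fold change -1.21 without CL 1, adjusted p = 0.0252). AHSG, a plasma protein, averaged 4158 ± 3419 FPKM in HL and 8399.7 ± 1978 FPKM in CL, with HL 1 at 530.2 FPKM far below the rest (log2 fold change -1.49 ± 0.60, adjusted p = 0.34). Of 14 clotting genes 1 was lower by the unadjusted test, and of 22 acute phase and complement genes 1 was higher. Their medians were -0.23 for clotting and -0.12 for acute phase genes. Scaled to the same sum they were 0.04 for clotting and 0.14 for acute phase genes, beside 0.196 over all genes. F2, the precursor of thrombin, averaged 808 ± 172 FPKM in HL and 1239 ± 294 FPKM in CL (log2 fold change -0.61 ± 0.23, adjusted p = 0.297).

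Neither list of lipid synthesis held a DEG. Of 18 genes listed for SREBP1 and fatty acid synthesis, the receptor NR1H3 included, 16 had a negative log2 fold change, 4 were lower and 1 higher by the unadjusted test, and the median was -0.49. The number lower was 5 without CL 1, beside 13.5% of all genes, and 2 without HL 3, beside 5.65%. SCD, which puts the double bond into saturated fatty acids, measured 1.35, 3.34, 3.65, 10.9 and 19.3 FPKM in HL, against 16.2, 143, 38.001, 184 and 3.94 FPKM in CL. The spread within CL was wide, and CL 1 and CL 5 lay within the HL range (log2 fold change -2.58 ± 0.93, adjusted p = 0.28). FASN, fatty acid synthase, averaged 90.8 ± 71.1 FPKM in HL and 171 ± 60.03 FPKM in CL (log2 fold change -1.18 ± 0.46, adjusted p = 0.315). ACSS2, which makes acetyl-CoA from acetate, averaged 173 ± 50.9 FPKM in HL and 302 ± 94.7 FPKM in CL (log2 fold change -0.80 ± 0.27, adjusted p = 0.25). The gene higher in HL was NR1H3, the oxysterol receptor LXRα, at 52.99, 49.8, 38.7, 44.4 and 50.4 FPKM in HL, against 38.6, 32.5, 37.6, 23.8 and 25.5 FPKM in CL. HL 3 and CL 1 lay next to each other at the border of the groups (log2 fold change 0.58 ± 0.18, adjusted p = 0.2). Cholesterol synthesis and uptake gave the same median, -0.49, with 20 of 22 negative and 3 lower by the unadjusted test, or 7 without CL 1, where 13.5% of all genes were lower. STARD4, which carries cholesterol in the cytosol, averaged 6.65 ± 2.74 FPKM in HL and 12.2 ± 3.601 FPKM in CL (log2 fold change -0.80 ± 0.26, adjusted p = 0.227). The medians of both lists stayed negative under every scaling, between -0.26 and -0.49 for SREBP1 genes and between -0.24 and -0.49 for cholesterol genes.

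Of 36 genes of PPARα, its targets and fatty acid oxidation tested, none was a DEG, 26 had a positive log2 fold change, and 5 were higher and none lower by the unadjusted test. Without HL 3 the number higher was 3, where 6.31% of all genes were higher. The median was 0.26, or 0.52 with the libraries scaled to the same sum and 0.55 after quantile normalization. PPARA measured 38.8, 45.1, 59.6, 60.9 and 67.7 FPKM in HL, against 37.3, 43.8, 25.5, 32.9 and 27.5 FPKM in CL. CL 2 was above HL 1, and the rest were separated (log2 fold change 0.69 ± 0.20, adjusted p = 0.193). ANGPTL4, an inhibitor of lipoprotein lipase induced by fatty acids, measured 1.73, 4.28, 2.53, 9.42 and 1.48 FPKM in HL, against 0.912, 1.68, 1.07, 0.985 and 1.07 FPKM in CL. HL 4 was much higher than the others, and CL 2 was above HL 5 (log2 fold change 0.98 ± 0.34, adjusted p = 0.256). CRAT, which exchanges acyl groups between carnitine and CoA, averaged 143 ± 23.2 FPKM in HL and 97.1 ± 27.4 FPKM in CL (log2 fold change 0.59 ± 0.23, adjusted p = 0.311). CPT1B, a carnitine palmitoyltransferase, was low in both groups, at 2.39 ± 1.55 FPKM in HL and 0.798 ± 0.389 FPKM in CL (log2 fold change 0.80 ± 0.32, adjusted p = 0.334).

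Of 19 genes of lipoprotein metabolism, 2 were higher and 2 lower by the unadjusted test, and the median was -0.11, or 0.14 with the libraries scaled to the same sum. MTTP, which loads lipid onto apolipoprotein B, averaged 249 ± 96.4 FPKM in HL and 149.7 ± 12.2 FPKM in CL (log2 fold change 0.65 ± 0.25, adjusted p = 0.315). LIPG, endothelial lipase, averaged 0.644 ± 0.602 FPKM in HL and 3.07 ± 2.74 FPKM in CL (log2 fold change -1.14 ± 0.39, adjusted p = 0.256). It fell without CL 1 (log2 fold change -1.44 without CL 1, adjusted p = 0.0494). LIPG passed the filter through HL 1 and the CL livers other than CL 1. LIPA, the lysosomal acid lipase, averaged 48.5 ± 15.99 FPKM in HL and 28.1 ± 5.76 FPKM in CL (log2 fold change 0.72 ± 0.24, adjusted p = 0.252), and was lowest among the HL livers in HL 3, as the macrophage markers were. Among 24 genes of triglyceride and phospholipid synthesis, GPAT4, which starts glycerolipid synthesis, was lower without overlap, with 31.1 ± 1.95 FPKM in HL and 42.2 ± 4.52 FPKM in CL (log2 fold change -0.42 ± 0.13, adjusted p = 0.219). DGAT2, which completes triglycerides, and PNPLA2, which breaks them down, were higher by the unadjusted test, with log2 fold changes of 0.56 for DGAT2 and 0.66 for PNPLA2.

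Of 19 genes of bile acid synthesis and transport, 5 were lower and 1 higher by the unadjusted test, and the median was -0.05, or 0.20 with the libraries scaled to the same sum. Without CL 1 the median was -0.38, and 2 members fell as DEGs, CYP27A1 and SLC51A, beside 0.667% of all genes. CYP7A1, the rate-limiting enzyme of bile acid synthesis, was named after its values were seen and measured 1.35, 6.64, 8.42, 4.64 and 29.5 FPKM in HL, against 28.4, 30.8, 41.4, 83.3 and 3.29 FPKM in CL. Only HL 1 lay below the CL range. HL 5 was above CL 1 and CL 5, and HL 2, HL 3 and HL 4 were above CL 5 alone (log2 fold change -1.79 ± 0.78, adjusted p = 0.38). CYP27A1, the mitochondrial enzyme of the alternative route, measured 129.9, 282, 309, 169.8 and 247 FPKM in HL, against 151, 658, 692, 557 and 483 FPKM in CL. CL 1 was within the HL range and the other CL livers were above it (log2 fold change -1.05 ± 0.41, adjusted p = 0.312). The fit without CL 1 called it (log2 fold change -1.45 without CL 1, adjusted p = 0.033). SLC51A, a subunit of the bile acid exporter, also had CL 1 within the HL range, with 47.1 ± 19.7 FPKM in HL and 99.6 ± 36.6 FPKM in CL (log2 fold change -1.05 ± 0.37, adjusted p = 0.272), and was called without it (log2 fold change -1.36 without CL 1, adjusted p = 0.0406). KLB, the co-receptor of the hormone that shuts down CYP7A1, averaged 4.78 ± 2.11 FPKM in HL and 9.197 ± 4.48 FPKM in CL (log2 fold change -0.79 ± 0.31, adjusted p = 0.319).

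Cytochrome P450 genes oxidise fatty acids, steroids and foreign compounds. Of 26 tested, 1 was higher and 9 were lower by the unadjusted test, beside 6.93% and 5.42% of all genes, and the median was -0.43, between -0.18 and -0.43 under the scalings tried. CYP2W1 measured 154, 116, 196, 108 and 388 FPKM in HL, against 458, 483, 455, 699 and 279.8 FPKM in CL. HL 5 was the 1 HL liver within the CL range (log2 fold change -1.41 ± 0.35, adjusted p = 0.132). LOC101799795, annotated as the P450 3A8 that oxidises drugs and steroids, measured 245, 307, 467, 402 and 512 FPKM in HL, against 749.6, 633, 718, 929 and 519 FPKM in CL. HL 5 and CL 5 were next to each other at the border, without overlap (log2 fold change -0.90 ± 0.24, adjusted p = 0.159). LOC119714247, a 4F22-like enzyme of fatty acid hydroxylation, averaged 11.97 ± 7.36 FPKM in HL and 51.5 ± 38.2 FPKM in CL (log2 fold change -1.98 ± 0.56, adjusted p = 0.175). The gene that was higher, LOC101799374, annotated as the P450 3A30 and named after its values were seen, averaged 6.48 ± 3.38 FPKM in HL and 2.39 ± 1.03 FPKM in CL (log2 fold change 1.02 ± 0.38, adjusted p = 0.3). These families hold close copies. The values come from uniquely mapped reads, so those of single members are uncertain where copies share sequence.

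Of 11 genes of sulfation, 2 were higher and 1 lower by the unadjusted test. PAPSS2 was the DEG, and LOC101790335, the lower 1, annotated as sulfotransferase 6B1, measured 155, 161, 73.9, 106 and 317 FPKM in HL, against 430.04, 435, 359, 297 and 377 FPKM in CL. Only HL 5 overlapped with the CL livers (log2 fold change -1.38 ± 0.33, adjusted p = 0.122). Of 30 antioxidant and glutathione genes, 26 had a negative log2 fold change, 5 were lower and none higher by the unadjusted test, and the median was -0.29, or -0.03 with the libraries scaled to the same sum. Without CL 1 there were 8 lower and 2 higher, beside 13.5% and 10.9% of all genes, and 2 of the lower were DEGs, beside 0.667%. MGST3, a microsomal glutathione transferase, averaged 112 ± 28.7 FPKM in HL and 228 ± 64.5 FPKM in CL (log2 fold change -1.01 ± 0.25, adjusted p = 0.132). It was 1 of these DEGs (log2 fold change -1.19 without CL 1, adjusted p = 0.0294). GPX4, which reduces lipid peroxides, averaged 328 ± 72.6 FPKM in HL and 507 ± 98.6 FPKM in CL (log2 fold change -0.63 ± 0.21, adjusted p = 0.256).

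**Figure D5:**
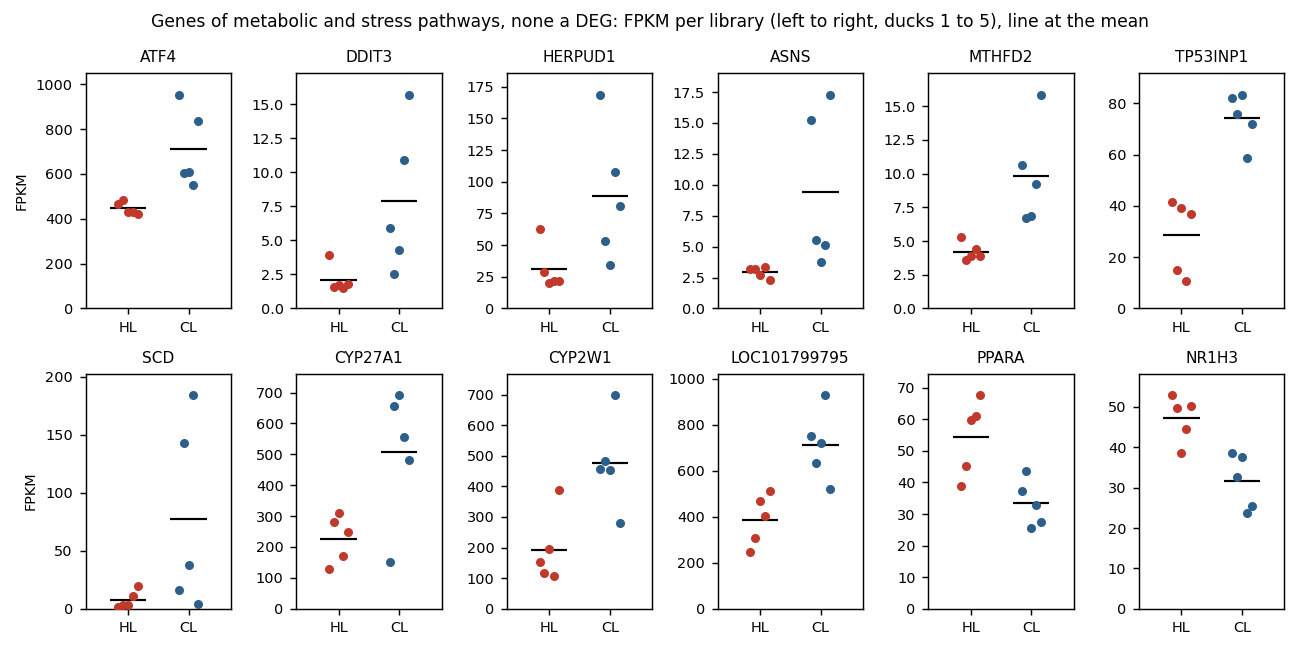
FPKM (linear axes from 0) in each liver library of 12 genes of metabolic and stress pathways, none of them a DEG, HL left and CL right, with a line at each group mean. ATF4, ASNS, MTHFD2, TP53INP1 and LOC101799795 are lower and NR1H3 is higher without overlap, and in the other panels at least 1 library crosses.

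The unfolded protein response matches protein folding to demand in the endoplasmic reticulum, and shares the factor ATF4 with the response to lack of amino acids. Of 28 genes tested, 7 were lower and none higher by the unadjusted test, and the median was -0.18, or 0.07 with the libraries scaled to the same sum. ATF4 measured 467, 482, 432, 429 and 423 FPKM in HL, against 954, 604, 607, 549 and 838 FPKM in CL. All HL livers were within a narrow range below every CL liver, and CL 1 was the highest (log2 fold change -0.64 ± 0.19, adjusted p = 0.198). DDIT3, a target of ATF4 that promotes cell death, measured 3.89, 1.58, 1.74, 1.49 and 1.81 FPKM in HL, against 5.91, 2.53, 4.32, 10.9 and 15.7 FPKM in CL. HL 1 was the 1 HL liver within the CL range (log2 fold change -1.35 ± 0.38, adjusted p = 0.174). HERPUD1, part of the breakdown of misfolded proteins, averaged 30.96 ± 18.02 FPKM in HL and 89.1 ± 52.4 FPKM in CL (log2 fold change -1.43 ± 0.42, adjusted p = 0.193). ASNS, asparagine synthetase and an ATF4 target in mammals, measured 3.17, 3.23, 2.67, 3.39 and 2.301 FPKM in HL, against 15.3, 5.502, 3.74, 5.101 and 17.3 FPKM in CL. CL 1 and CL 5 were far above the rest, and the groups did not overlap (log2 fold change -1.18 ± 0.35, adjusted p = 0.197). The heat shock list had 2 lower of 20, with a median of -0.32 that was -0.05 without CL 1.

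Of 42 genes of amino acid breakdown and one-carbon metabolism, 6 were lower and none higher by the unadjusted test. Without CL 1 there were 10 lower and 1 higher, beside 13.5% and 10.9% of all genes. The median with all libraries was -0.17, beside -0.026 over all genes. It was 0.09 with the libraries scaled to the same sum, beside 0.196 over all genes, and 0.11 after quantile normalization, beside 0.004. MTHFD2, a mitochondrial enzyme of folate metabolism and another known ATF4 target, measured 5.27, 3.57, 3.87, 4.38 and 3.86 FPKM in HL, against 10.6, 6.68, 6.83, 9.22 and 15.9 FPKM in CL. The groups did not overlap (log2 fold change -1.01 ± 0.21, adjusted p = 0.0894). Tyrosine breakdown was represented by 2 of the 3 lower genes without overlap, HGD with 61.3 ± 27.03 FPKM in HL and 118 ± 23.4 FPKM in CL (log2 fold change -1.05 ± 0.31, adjusted p = 0.199) and FAH with 141 ± 44.1 FPKM in HL and 247 ± 64.9 FPKM in CL (log2 fold change -0.84 ± 0.27, adjusted p = 0.225). ACMSD, which diverts tryptophan breakdown away from NAD, averaged 1.48 ± 1.03 FPKM in HL and 4.85 ± 2.53 FPKM in CL (log2 fold change -1.22 ± 0.34, adjusted p = 0.169).

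Receptors led the first of the immune lists. Of 33 cytokines, chemokines and receptors tested, 6 were higher and none lower by the unadjusted test, with a median of 0.07. The number higher was 10 without CL 1, where 10.9% of all genes were higher, with a median of 0.31. LIFR, a receptor of leukaemia inhibitory factor, measured 14.5, 14.5, 17.5, 18.6 and 20.1 FPKM in HL, against 10.6, 10.9, 8.63, 9.696 and 9.5998 FPKM in CL. All HL livers were above all CL livers (log2 fold change 0.72 ± 0.14, adjusted p = 0.0653). ACVRL1, a receptor for bone morphogenetic proteins on endothelium, averaged 5.09 ± 1.54 FPKM in HL and 2.28 ± 0.753 FPKM in CL (log2 fold change 0.88 ± 0.20, adjusted p = 0.119). IL2RG, the chain shared by several interleukin receptors, was lowest among HL in HL 3, at 2.49 FPKM, and averaged 7.36 ± 3.72 FPKM in HL and 2.53 ± 0.995 FPKM in CL (log2 fold change 1.16 ± 0.32, adjusted p = 0.174). Of 35 genes of phagosome, lysosome and antigen presentation, 7 were higher and 1 lower. The counts were 8 higher and 5 lower without CL 1, beside 10.9% and 13.5% of all genes. They were 9 higher and 2 lower without HL 3, beside 6.31% and 5.65%. MITF, a transcription factor of lysosome genes, was higher without overlap (log2 fold change 0.52 ± 0.15, adjusted p = 0.175), and NCF1, a subunit of the NADPH oxidase, averaged 2.41 ± 1.15 FPKM in HL and 0.844 ± 0.372 FPKM in CL (log2 fold change 0.82 ± 0.27, adjusted p = 0.247). Of 20 genes around Toll-like receptors and NF-kB, TNFAIP2 was the DEG, 1 more was higher and 2 were lower.

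The interferon list had 1 higher and 3 lower of 19, with a median of -0.20, or 0.06 with the libraries scaled to the same sum. Its counts were 2 higher and 5 lower of 18 without CL 1, beside 10.9% and 13.5% of all genes. EPSTI1, an interferon-induced gene, measured 0.181, 0.724, 0.728, 0.353 and 1.11 FPKM in HL, against 3.17, 2.305, 1.94, 3.33 and 0.677 FPKM in CL. CL 5 was within the HL range and the other CL livers were above it (log2 fold change -0.97 ± 0.26, adjusted p = 0.155). EPSTI1 passed the filter through HL 5 and the CL livers other than CL 5. RNF213, an interferon-induced ubiquitin ligase, was higher, with 2.57 ± 0.489 FPKM in HL and 1.62 ± 0.361 FPKM in CL (log2 fold change 0.45 ± 0.14, adjusted p = 0.227).

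Genes of DNA synthesis were low in these livers and 4 of 20 were lower by the unadjusted test, with 1 higher and a median of 0.02. RRM2, a subunit of ribonucleotide reductase, measured 0.365, 0.768, 0.2300, 1.05 and 1.2999 FPKM in HL, against 1.62, 2.51, 1.86, 2.12 and 1.76 FPKM in CL. The groups did not overlap (log2 fold change -0.80 ± 0.18, adjusted p = 0.117). CDK1, the kinase that starts mitosis, averaged 2.22 ± 0.9299 FPKM in HL and 5.28 ± 1.52 FPKM in CL (log2 fold change -0.98 ± 0.22, adjusted p = 0.101), and TK1, thymidine kinase, 1.397 ± 0.719 FPKM in HL and 2.71 ± 0.572 FPKM in CL (log2 fold change -0.67 ± 0.21, adjusted p = 0.218). TYMS, thymidylate synthase, was the 1 higher and was named after its values were seen, with a log2 fold change of 0.48.

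Of 27 nuclear receptors and cofactors, 5 were higher and 1 lower by the unadjusted test. Without CL 1 there were 6 higher and 6 lower, beside 10.9% and 13.5% of all genes. ESR1, the oestrogen receptor, measured 9.78, 13.5, 14.4, 14.99 and 20.7 FPKM in HL, against 10.1, 7.43, 7.17, 5.11 and 8.82 FPKM in CL. HL 1 and CL 1 were the pair that overlapped (log2 fold change 0.84 ± 0.21, adjusted p = 0.132). RARA, a retinoic acid receptor, measured 16.9, 15.1, 16.1, 13.2 and 14.8 FPKM in HL, against 10.97, 33.6, 28.5, 50.8 and 33.9 FPKM in CL. CL 1 was the lowest of all and the other CL livers were far above HL (log2 fold change -0.86 ± 0.31, adjusted p = 0.284). Without CL 1 it fell (log2 fold change -1.19 without CL 1, adjusted p = 0.0182). In the growth hormone and insulin axis, 2 of 23 were lower: FOXO3, a transcription factor held in check by insulin, without overlap (log2 fold change -0.69 ± 0.18, adjusted p = 0.155), and IRS2, an adaptor of the insulin receptor, which was low in HL 2, HL 4 and HL 5, at 1.76, 1.38 and 1.60 FPKM (log2 fold change -1.05 ± 0.42, adjusted p = 0.339).

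Of 27 genes of the extracellular matrix, the 1 past the unadjusted threshold was NID2, a basement membrane protein, which was lower without overlap, with 39.02 ± 8.46 FPKM in HL and 61.2 ± 5.903 FPKM in CL (log2 fold change -0.65 ± 0.16, adjusted p = 0.134). Clock genes had 1 higher and 2 lower of 16, among them HLF, an output factor of the clock, with 7.28 ± 3.68 FPKM in HL and 12.1 ± 3.71 FPKM in CL (log2 fold change -0.72 ± 0.28, adjusted p = 0.315). The lists of immediate early genes, glucose metabolism, iron and haem, and eicosanoids had at most 2 members past the unadjusted threshold in each direction and medians from -0.21 to 0.08. Without CL 1 the glucose list had 3 higher and 8 lower of 26, with a median of -0.33, and the iron and haem list 2 higher and 5 lower of 24. Beside these stand 10.9% of all genes higher and 13.5% lower without CL 1. Scaled to the same sum, all 4 medians were above 0, from 0.05 to 0.33, but only that of the eicosanoid list, 0.33, was above the 0.196 over all genes. In the eicosanoid list, TBXAS1, thromboxane synthase, averaged 2.16 ± 0.913 FPKM in HL and 0.612 ± 0.448 FPKM in CL (log2 fold change 0.95 ± 0.25, adjusted p = 0.153), with HL 3 the lowest of HL at 0.690 FPKM, and without HL 3 it was a DEG higher in HL. TBXAS1 passed the filter through CL 1 and the HL livers other than HL 3, and was not tested without CL 1. Without CL 1 the DEG of that list was GPX2, a glutathione peroxidase named after its values were seen, which fell (log2 fold change -1.38 without CL 1, adjusted p = 0.0445).

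Of 67 ribosomal protein genes, none had a positive log2 fold change, the median was -0.39 and 3 were lower by the unadjusted test. Without CL 1, where 13.5% of all genes were lower, the number lower was 41 and the median -0.56. The median was -0.12 with the libraries scaled to the same sum and -0.05 after quantile normalization. RPL37 measured 428, 343, 477, 193 and 268 FPKM in HL, against 310.1, 504, 641, 609.7 and 658 FPKM in CL. CL 1 was within the HL range and the other CL livers were above it (log2 fold change -0.69 ± 0.29, adjusted p = 0.356). Of 80 nuclear genes of oxidative phosphorylation, 5 were lower, or 29 without CL 1, again beside 13.5% of all genes. The median was -0.28, or -0.01 with the libraries scaled to the same sum and -0.06 after quantile normalization. NDUFAF6, an assembly factor of complex I, was lower without overlap, with 2.63 ± 0.362 FPKM in HL and 4.03 ± 0.178 FPKM in CL (log2 fold change -0.47 ± 0.12, adjusted p = 0.131). None of 31 proteasome genes passed the unadjusted threshold, with a median of -0.05, or 0.20 scaled to the same sum and 0.07 after quantile normalization.

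Without CL 1 the picture over all genes changed more than without any other single library, to 99 DEGs (36 higher, 0.381%, and 63 lower, 0.667%), which held all 12 of the DEGs above. Of the 99, 30 were on 1 of the lists. The 63 lower genes included, named after their values were seen, TKFC, triokinase of fructose metabolism, at 21.1, 30.4, 28.9, 9.28 and 29.9 FPKM in HL, against 14.5, 232, 95.4, 147 and 76.96 FPKM in CL. CL 1 was lower than any HL liver but HL 4 (log2 fold change -2.46 without CL 1, adjusted p = 0.0252). SCAP, which escorts SREBP proteins, measured 11.5, 15.8, 10.7, 8.67 and 13.8 FPKM in HL, against 9.04, 30.1, 35.03, 25.01 and 26.8 FPKM in CL. CL 1 again lay within the HL range and the other CL livers were all above it (log2 fold change -1.22 without CL 1, adjusted p = 0.0206). PLA2G7, the lipase that inactivates platelet-activating factor and is made by macrophages, was among the higher genes, at 56.2, 49.3, 51.9, 35.9 and 50.2 FPKM in HL, against 70.5, 12.8, 17.7, 18.7 and 15.1 FPKM in CL. CL 1 was the highest library of all, and the other CL livers were the lowest (log2 fold change 1.54 without CL 1, adjusted p = 0.00947). Of the genes described above, ITGA1, CLDN5, STAB1, C1QC, LAPTM5 and TIMD4 also rose and SLC26A5 also fell without CL 1. Without HL 3, ITGA1, DAB2, ITGB2, ACVRL1, C1QC, LAPTM5, MARCO, TIMD4, CD5L, CSF1R, IL2RG and NCF1 rose, and SCCPDH was no longer called. Leaving out both CL 1 and HL 3 gave 99 genes that rose and 133 that fell.

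Breast muscle of ducks on the same diets allowed a test of whether the diet difference was that of the liver. The study names 10 male individuals for its 20 libraries, so liver and muscle may come from the same ducks. The labels do not say so, and the interaction test below treated all 20 libraries as independent. A fit that paired liver and muscle by number called 0 genes. Of the 12 DEGs, 9 passed the filter in muscle, with log2 fold changes of the linseed oil group (HM) over the muscle control group (CM) from -0.39 to 0.54, and none had an unadjusted p below 0.05. The liver difference minus the muscle difference had an unadjusted p below 0.05 in all 12, beside 8.11% of all genes, but they were chosen by the liver contrast that is part of this difference. Over 11256 genes, 1 (0.00888%) passed the adjusted and fold thresholds of that interaction test in limma, MRC1, with a difference of 1.90 on the log2 scale (adjusted p = 0.00924). MRC1 is one of the 3 that did not pass the filter in muscle, where it had 0.647 to 1.65 FPKM in HM and 0.615 to 1.18 FPKM in CM. At such levels log2(FPKM + 1) compresses a change of any size, and with a pseudocount of 0.1 the interaction was not called, so a difference between the tissues is not established. For the endothelial list, 25 genes were tested in muscle, none passed the unadjusted threshold, and the median was -0.13. For macrophages the muscle median was 0.20 over 15 genes, with 1 higher.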

How the data were processed

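Poly-T selected mRNA of duck liver was sequenced, aligned with HISAT2 2.0.5 to the duck genome ZJU1.0, and deposited by the authors as FPKM per gene from uniquely mapped reads. The counting tool and strand setting are not given in the sources used here. The deposited FPKM values of every library came out as whole multiples of 1 fragment (100% within 0.02 fragments, judged up to 1000 fragments), which gave the depths, and were already scaled by median-of-ratios size factors. Of 25117 gene IDs, 20868 matched the RefSeq gene table of assembly IASCAAS_PekinDuck_T2T, used for names only. All 10 libraries were separate ducks, none a duplicate. The study kept the ducks of each diet in replicate pens. The labels do not give the pen, so ducks that shared a pen were counted as separate replicates.

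Genes with FPKM of at least 1 in at least 5 liver libraries were tested, two-sided, by limma 3.58.1 (trended eBayes) in R 4.3.3 on log2(FPKM + 1), with Benjamini-Hochberg adjustment over all genes tested. Fold changes are HL minus CL on that scale, which understates those of low genes. They are given ± SE, and FPKM means ± SD with n = 5. The script was tested on simulated data.

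The gene lists (41 lists, 1082 symbols, 167 without an entry, 901 genes tested) and the members were chosen with earlier results of these data known, and TTR was taken off the clotting list, where it had been entered in error, after values were seen. Lists are described by counts and medians, with no test. Genes were named by rule: every DEG with a symbol, the 8 largest non-overlapping differences in each direction among genes short of the DEG threshold, and up to 4 list members with the smallest unadjusted p plus the first marker of each cell type. Exceptions are named as such, and some genes are not reported here. A replicate block, other pseudocounts, filters and scalings, voom on the recovered fragments, and fits without each library were tried. Fits without both CL 1 and HL 3, and list counts without either, were added after seeing the data.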

Additional observations from a re-analysis of the deposited data

Results flagged for a closer look

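In 76 groups of 5 libraries looked at for single values far from the rest (Dixon's ratio), 2 stood out. This is fewer than the about 1 in 20 that chance alone gives, so the 2 are described and not taken as a finding about a library. Both were CL 1 among the CL livers: DAB2 at 0.535 FPKM, where the other CL livers had 1.32 to 1.59 FPKM, and LYVE1 at 5.42 FPKM, where the others had 8.27 to 9.41 FPKM. Without CL 1 both genes had adjusted p-values below 0.05 in limma, with log2 fold changes of 0.95 for DAB2 and 0.95 for LYVE1.

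For MRC1 the diet difference in liver exceeded that in breast muscle by 1.90 on the log2 scale (limma interaction, adjusted p = 0.0092), the 1 gene of 11256 past both thresholds. In muscle MRC1 did not pass the filter, with 0.647 to 1.65 FPKM in HM and 0.615 to 1.18 FPKM in CM, where log2(FPKM + 1) compresses a change. The call was lost with a pseudocount of 0.1 and in a fit that paired liver and muscle libraries by number, so a difference between the tissues is not established.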

How the results depend on the processing

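The count of 12 DEGs was 5 with a pseudocount of 0.1, 3 with no filter, 4 at an FPKM of at least 5, 47 with the same summed FPKM, 83 with all 20 libraries in one fit, 30 with voom on recovered fragments, 21 with no fold threshold, and 232 without both CL 1 and HL 3. Quantile normalization, robust eBayes and a pseudocount of 0.5 stayed within 1.5 times. Leaving out single libraries gave 3 to 99 DEGs, and MRC1, ADGRL4 and MGAT4A were called in all 10 of these fits. All 12 were also called by voom, in the fit with 20 libraries, and without CL 1. The 1178 genes with an unadjusted p below 0.05 became 1888 with no filter, 605 at an FPKM of at least 5, 1836 with the same summed FPKM, 2334 without both libraries, and 755 to 2309 without single libraries. The 267 genes without overlap became 110 at an FPKM of at least 5, 539 with the same summed FPKM, and 284 to 988 without single libraries, where fewer samples make separation easier. The 1 gene of the liver minus muscle comparison became 0 with a pseudocount of 0.1 and 0 in a fit on the differences between liver and muscle libraries of the same number. It became 0 to 35 without single replicates, 35 being without linseed oil replicate 3. For the other changes the cause was not tested.

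The replicate block, pairing HL and CL livers by number, gave 0 DEGs in limma (smallest adjusted p 0.0832, 1206 genes with an unadjusted p below 0.05, and 30 DEGs by voom without the block). The numbers were not taken to pair ducks: the correlations of same-numbered deviations were 0.042, 0.156, 0.332, -0.071 and -0.163, and 2 of the 5 HL livers correlated best with the CL liver of their own number. The count of motifs in promoters was not run, since no promoter windows were used here. Depth was even between libraries, and the sign of list medians depends on the scaling: of 27 lists with a median below 0 in the deposited scaling, 14 were above 0 with the same summed FPKM and 8 after quantile normalization. The median over all genes was 0.196 with the same summed FPKM and 0.004 after quantile normalization. A list median above 0 with the same sum can thus still lie below that of all genes.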
